A study of Mus musculus with 2 samples.

Results

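The 69 genes described here encode enzymes that add or remove methyl and acetyl groups on histones. They were chosen by symbol alone among 21911 protein-coding genes (GENCODE M21, mm10): every gene named Kdm, Kmt, Setd, Hdac, Sirt, Kat, Suv39h, Ehmt, Ezh or Nsd followed by a digit. The set held 18 lysine demethylases, 25 lysine methyltransferases, 11 zinc-dependent deacetylases (HDACs), 7 sirtuins and 8 acetyltransferases. A few carry the name without a firm histone role. SETD3 methylates actin, and the mitochondrial sirtuins act on metabolic enzymes.

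Histone lysine methyltransferases place methyl groups that mark active promoters (histone H3 lysine 4, H3K4), gene bodies (H3K36) or silenced chromatin (H3K9 and H3K27), and demethylases take them off. Acetyltransferases loosen nucleosomes by neutralising lysines, and HDACs and sirtuins reverse this, the sirtuins with NAD as a cofactor. In the testis several of these enzymes are known to be needed for meiosis or for the silencing of the sex chromosomes in spermatocytes.

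Testis tissue of male B6CASTF1/J mice aged 14 days, first-generation hybrids between C57BL/6 and a castaneus strain with no treatment in the labels, was profiled by DNase-seq, which sequences the sites where the nuclease DNase I can reach the DNA. The labels give 1 group with 2 biological replicates. Replicate 1 is described as tissue of 3 males and replicate 2 as tissue of a male. Their donor label is identical, so part of the spread between them may be technical, and no test between conditions was possible. The longer deposited peak lists held 101172 and 117359 peaks. All 6 germ cell markers examined had a promoter peak in both libraries, from Stra8 (mean value 2.94) to Dazl (10.4). So did all 5 Sertoli cell markers, from Dhh (0.694) to Clu (3.51). All 3 Leydig cell markers, from Cyp11a1 (0.491) to Star (2.92), and both peritubular markers, Acta2 (0.882) and Myh11 (2.07), had one too. Both erythroid genes examined, Alas2 and Epb42, were at 0 in both. Of 2 endothelial genes, Pecam1 was at 0 and Cdh5 at 0.425 and 0.438, and of 2 leukocyte genes, Adgre1 was at 0 and Ptprc at 0.323 and 0.196. Of 4 genes of other tissues, the muscle gene Ckm stood at 3.73 and 3.35 and the other 3 at 0. In whole tissue, a lower value from fewer cells with an open site cannot be told apart from a less accessible site in all cells.

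A gene's promoter value is the highest signal, in the authors' own units, among the peaks within 1000 bp of any of its annotated starts, or 0 where no peak was listed there. Genes with such a peak in each of the libraries are called open. Of the 69 genes, 68 were open, against 68.7% of all protein-coding genes. Kdm6b alone had a peak in a single library (background 3.25%). The median promoter value over the 68 genes was 7.09 and 6.82 in replicates 1 and 2 (mean 6.96 ± 0.190; SD, n = 2). The median over all 15057 open genes was 3.86 ± 0.255 (SD, n = 2), a ratio of 1.81. Of the 68 genes, 53 lay above the median of open genes (background 50%), 27 among the top 25% of values (background 25%) and 11 among the top 10% (background 10%). Only Hdac7, Hdac8, Hdac9, Kat2b and Kdm5d lay among the lowest 25% (background 25%), 5 genes or 7.35% of the set.

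These genes have more annotated starts than other genes, a median of 8 against 4 for all open genes. Among genes with 8 or more starts, the medians were 8.62 ± 0.496 for 37 of the enzymes and 5.79 ± 0.336 for all 3227 open genes. Among genes with 7 or fewer, they were 5.44 ± 0.286 for 31 enzymes and 3.35 ± 0.189 for all 11830 (SD, n = 2 throughout). In both groups the enzymes' median was higher than that of all genes by more than the spread between the libraries. The enzymes still had more starts within each group, a median of 11 against 10 and of 5 against 3. The groups are therefore not matched on the number of starts. The spread between the libraries, here and below, does not measure how much single genes of a set differ. When only the 5′ end of each gene was used, the median was 6.83 over the 62 enzymes with a peak there, 1.76 times that of all genes with one.

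**Figure D1:**
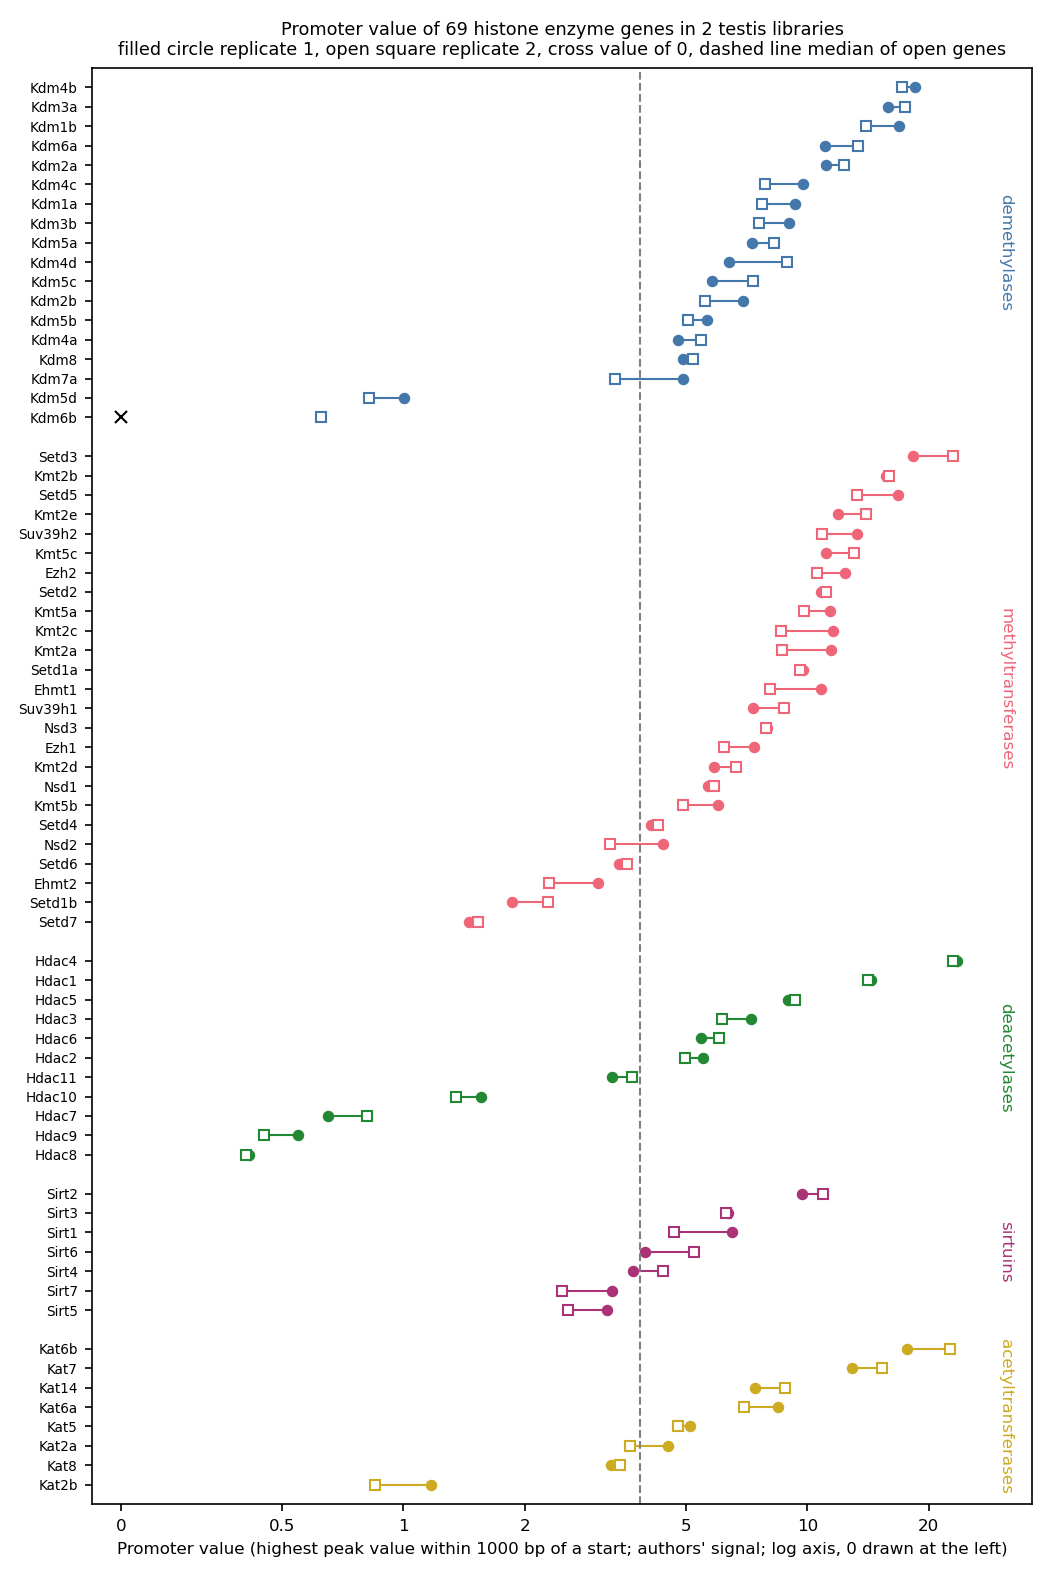
Promoter value (authors' signal, log axis, with 0 drawn at the left edge) of each of the 69 genes, grouped by class and sorted by mean. Filled circles are replicate 1, open squares replicate 2, and the dashed line is the median of all open genes (3.85, over gene means). Most points lie to the right of the line, and Kdm6b is the single gene with a value of 0.

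The classes kept the same order in both libraries, with Kdm6b counted at its values in the demethylases. Methyltransferases came first with medians of 9.75 and 8.61 (9.18 ± 0.808), then demethylases with 7.10 and 7.66 (7.38 ± 0.402), acetyltransferases with 6.29 and 5.88 (6.08 ± 0.286), HDACs with 5.46 and 4.98 (5.22 ± 0.335) and sirtuins with 3.97 and 4.69 (4.33 ± 0.506; SD, n = 2). The values of single genes overlapped widely between classes. HDACs spanned the widest range, from 0.411 (Hdac8) to 23.2 (Hdac4), so that 6 of 11 lay above the median of open genes. The corresponding counts were 20 of 25 methyltransferases, 16 of 17 open demethylases, 6 of 8 acetyltransferases and 5 of 7 sirtuins. At the 5′ end alone, with absent peaks at 0, sirtuins (4.05) came above HDACs (3.49), so the order of those classes depends on which starts are counted. With windows of 500 bp, methyltransferases (7.64 ± 0.362) and demethylases (7.38 ± 0.402) differed by less than their spread. With windows of 2500 bp, acetyltransferases (6.08 ± 0.286), HDACs (5.78 ± 0.370) and sirtuins (5.71 ± 0.915) differed by less than the larger spread of each pair. In those wider windows, Hdac10 and Sirt7 took their values from peaks in promoter windows of other protein-coding genes.

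**Figure D2:**
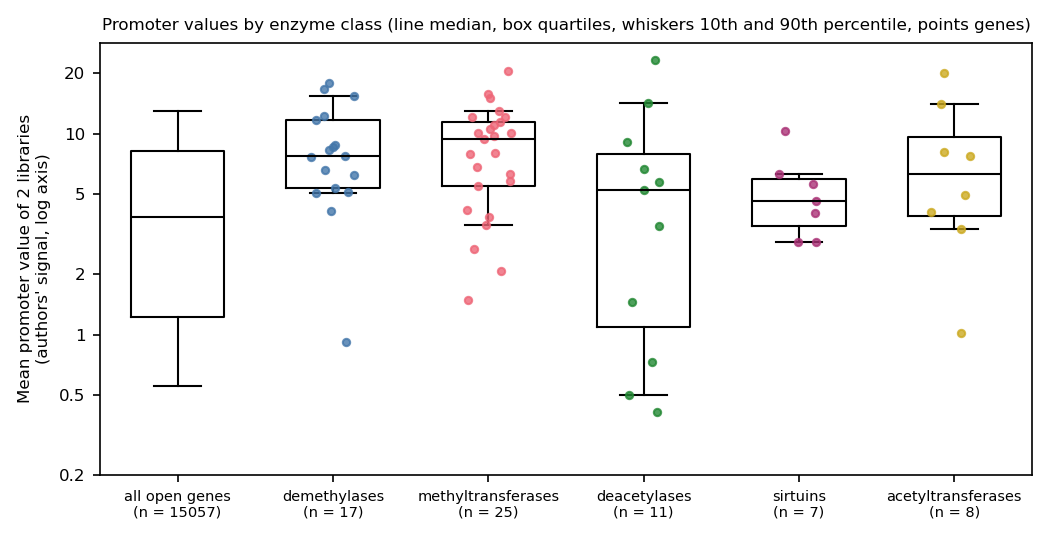
Mean promoter value of both libraries (authors' signal, log axis) for all open genes and for the open genes of each class. Lines are medians, boxes quartiles, whiskers the 10th and 90th percentile and points single genes. The lower quartile of demethylases (5.36) and of methyltransferases (5.47) lies above the median of all open genes (3.85).

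Among the H3K4 methyltransferases, which act in large complexes at promoters and enhancers, Kmt2b was highest with 15.7 and 15.9. Kmt2a stood at 11.5 and 8.68, Kmt2c at 11.6 and 8.61, Setd1a at 9.75 and 9.61 and Kmt2d at 5.87 and 6.67. Setd1b was the exception with 1.85 and 2.29, below its paralog Setd1a by 5.26 and 4.20 times. Kmt2e (MLL5), a relative with no firm methyltransferase activity, stood at 11.9 and 14.0. The peaks of Kmt2c, Kmt2d, Kmt2e and Setd1b were centred 918, 1027, 1040 and 942 bp upstream of the nearest start in replicate 1, near the edge of the window and out of reach of a window of 500 bp. With that window the mean of Kmt2e fell from 12.9 to 5.97 and that of Setd1b from 2.07 to 0.779.

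The H3K9 methyltransferases set up heterochromatin. Suv39h2, the testis-enriched member of its pair, had 13.3 and 10.9, and its X-linked paralog Suv39h1 had 7.33 and 8.75. The library ranges did not overlap, though the gap in replicate 2 was 1.25 times. Ehmt1 and Ehmt2 encode GLP and G9a, which make H3K9 dimethylation together and are known to be needed for meiotic prophase. Ehmt1 had 10.8 and 8.08 and Ehmt2 had 3.03 and 2.29, a gap of 3.56 and 3.53 times, and the Ehmt2 peak was shared with a start of C2. Ezh2, the catalytic subunit of a Polycomb repressive complex that makes H3K27 trimethylation, had 12.4 and 10.6. Its paralog Ezh1 had 7.38 and 6.21.

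The sequences under the promoter peaks of Suv39h1 and Suv39h2 are shown because the paralogs share a footprinted string. They are on the gene's strand of mm10 (GRCm38.p6, RefSeq), run from the distal edge of the replicate 1 peak to at most 50 bases past the most upstream start in reach, and have in capitals the bases that lie under a footprint, a short stretch protected from cutting, in both libraries.
Suv39h1, chrX:8074711-8074860, minus strand: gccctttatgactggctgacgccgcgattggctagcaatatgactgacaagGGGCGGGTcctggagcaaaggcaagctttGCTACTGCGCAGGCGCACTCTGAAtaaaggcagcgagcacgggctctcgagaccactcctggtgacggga
Suv39h2, chr2:3474982-3475180, minus strand: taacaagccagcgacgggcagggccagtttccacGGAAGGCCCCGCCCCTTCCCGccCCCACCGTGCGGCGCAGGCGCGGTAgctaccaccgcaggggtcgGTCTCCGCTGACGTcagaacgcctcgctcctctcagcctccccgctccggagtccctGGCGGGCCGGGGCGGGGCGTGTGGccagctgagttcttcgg
In Suv39h1, 32 of 150 bases were footprinted in both libraries, and in Suv39h2 84 of 199. The longest string under footprints of both is GCGCAGGCGC, picked out after these sequences had been read. In a 300 bp window centred on the highest peak it occurred, on either strand, in 6 of the 68 open enzymes (8.82%; Ehmt1, Kdm2a, Kdm3a, Kdm5d, Suv39h1 and Suv39h2) in both libraries, touching a footprint in all 6. Suv39h1 and Suv39h2, from which the string was taken, are counted among the 6. Over all open genes it occurred in 5.41% and 5.26%, and touched a footprint in 5.12% and 5.03%. Suv39h2 also holds the cAMP-response element TGACGTCA, which among the 68 was matched elsewhere only in Nsd2 (2 of 68, background 3.58% and 3.59%).

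The H3K36 methyltransferases were spread around the middle of the set. Setd2, which marks transcribed gene bodies, had 10.8 and 11.1, Nsd3 had 7.94 and 7.89, Nsd1 had 5.68 and 5.89, and Nsd2 had 4.40 and 3.25. Nsd2 was modest in height and broad: its peak spanned 560 and 820 bp, against a median of 240 and 220 bp for the set, and held 12 and 17 footprints, the only gene of the 68 with 10 or more in both libraries (background 0.824%). At least 5 in both were found in 29 of 68 (background 29.3%). Of the H4K20 methyltransferases, Kmt5c had 11.1 and 13.0, Kmt5a 11.4 and 9.82 and Kmt5b 6.03 and 4.92. Among the other SETD genes, Setd3 reached 18.3 and 22.9 from a peak shared with the start of the cyclin gene Ccnk, and Setd5 16.8 and 13.3. Setd4 had 4.11 and 4.27, Setd6 3.41 and 3.58, and Setd7 1.46 and 1.53.

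Both flavin-dependent demethylases, which remove methyl groups from H3K4, were above the median of open genes. Kdm1b, known for its role in the imprinting of oocytes, had 16.8 and 13.9 from a peak shared with Tpmt, and Kdm1a (LSD1) had 9.33 and 7.73. The gap was 1.80 times in each library. Of the JmjC demethylases that act on H3K9, Kdm4b had 18.4 and 17.2, and Kdm3a, known to be needed for spermatid maturation, 15.9 and 17.4. Kdm3b, Kdm4c and Kdm4d had means between 7.65 and 8.80, Kdm4a had 4.80 and 5.47, and Kdm7a 4.91 and 3.34. Kdm4d, a gene with testis-enriched expression, shared its peak with Cwc15 and had the largest relative gain from replicate 1 (6.40) to replicate 2 (8.91). Of the H3K36 demethylases, Kdm2a had 11.1 and 12.3, Kdm2b 6.91 and 5.57 and Kdm8 4.93 and 5.20.

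The H3K4 demethylases Kdm5c and Kdm5d are homologs on X and Y, and a male carries a single copy of each. How reads that fit both were placed is not stated. The mice are hybrids with a castaneus strain, whereas mm10, from which the sequences are printed, is a C57BL/6J reference. Which strain gave the X and the Y is not in the labels, and an effect of strain on X and Y values was not tested. Kdm5c had 5.80 and 7.33 and Kdm5d had 1.01 and 0.823, a gap of 5.76 and 8.90 times. Of the 183 protein-coding genes of Y in the annotation, 7 were open, and their median was 1.34 ± 0.355. The autosomal Kdm5a had 7.28 and 8.27 and Kdm5b 5.64 and 5.07. The pair's peaks are printed in the same way, with footprinted bases in capitals, to show which bases were protected in each.
Kdm5c, chrX:152232821-152233000, plus strand: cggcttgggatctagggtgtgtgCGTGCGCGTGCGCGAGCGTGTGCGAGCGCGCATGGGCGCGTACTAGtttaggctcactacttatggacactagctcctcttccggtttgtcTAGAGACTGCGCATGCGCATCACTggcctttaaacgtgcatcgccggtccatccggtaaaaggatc
Kdm5d, chrY:897461-897620, plus strand: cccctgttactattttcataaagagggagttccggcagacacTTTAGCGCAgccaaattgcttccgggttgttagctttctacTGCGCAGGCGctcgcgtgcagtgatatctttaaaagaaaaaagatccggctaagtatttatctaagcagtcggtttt
In Kdm5c 70 of 180 bases were under footprints in both libraries, and in Kdm5d 19 of 160. The Kdm5c peak holds the palindrome bound by the factor NRF1 inside a footprint, and the Kdm5d peak holds GCGCAGGCGC partly inside one. Both hold the ETS string CCGGAAG, on the minus strand in Kdm5c and also in Kdm5d, outside the capitals.

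All 5 enzymes on X were open, against 60.3% of X-linked protein-coding genes. The H3K27 demethylase Kdm6a (UTX) had 11.1 and 13.4, and Suv39h1, Kdm5c and the cytoplasmic tubulin deacetylase Hdac6 (5.46 and 6.04) also lay above the median of open genes. Hdac8 had 0.414 and 0.408, the lowest open gene of the whole set. Its signal amounted to 77 steps in replicate 1 and 108 in replicate 2, where a step is the unit of which the values under 1 of a library were whole multiples (100% of them, to within 0.05 steps). The median over open X-linked genes was 1.46, and over open autosomal genes 4.04, so 4 of these 5 genes stood above the median for their chromosome. The Y-linked relative of Kdm6a, Uty, had 1.26 and 1.85.

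The class I enzymes HDAC1, HDAC2 and HDAC3 form the core of large nuclear co-repressor complexes. Hdac1 had 14.4 and 14.2, Hdac3 7.27 and 6.13 from a peak shared with Rell2, and Hdac2 5.52 and 4.98. Hdac1 exceeded its paralog Hdac2 by 2.61 and 2.84 times. The class IIa HDACs, signal-dependent regulators best known from muscle, heart and bone, lay far apart. Hdac4 had 23.5 and 23.0, the highest of all 69 genes, Hdac5 had 8.97 and 9.30, Hdac7 had 0.651 and 0.812 and Hdac9 had 0.548 and 0.453. Of the rest, Hdac10, a polyamine deacetylase, had 1.56 and 1.35 (mean 1.45, against 6.86 with windows of 2500 bp). The peaks behind that 6.86 lay in promoter windows of other protein-coding genes, since outside them the highest near Hdac10 were 0.823 and 0.679. The class IV gene Hdac11 had 3.29 and 3.69.

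The Hdac4 peak did not lie at the annotated 5′ end of the gene, where no peak was listed in either library. It lay 15258 bp inside, just upstream of the starts of 2 coding transcripts. These are the gene's most upstream coding starts, because the transcripts annotated at its 5′ end are noncoding. The sequence is shown because the peak carries the highest value of the set.
Hdac4, chr1:92180292-92180591, minus strand: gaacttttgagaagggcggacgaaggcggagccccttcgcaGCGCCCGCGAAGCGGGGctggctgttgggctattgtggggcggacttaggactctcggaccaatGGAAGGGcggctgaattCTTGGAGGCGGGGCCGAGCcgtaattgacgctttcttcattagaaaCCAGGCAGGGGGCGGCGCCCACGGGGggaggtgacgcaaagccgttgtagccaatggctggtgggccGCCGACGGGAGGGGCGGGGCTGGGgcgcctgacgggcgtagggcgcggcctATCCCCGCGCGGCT
Capitals mark 107 of 300 bases under footprints in both libraries. The stretch holds the SP and KLF string GGGCGG, 2 of whose matches are in capitals, and the NFY string CCAAT.

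Alternative starts decided the value of 9 genes, whose highest peak was away from the 5′ end in both libraries (background 11.5%). Besides Hdac4, no 5′-end peak was listed in either library for the acetyltransferase gene Kat6b, for Kdm4c, Hdac7 and Hdac9, which makes 5 of 68 (background 5.65%). Kat6b had 17.7 and 22.5 at starts some 19 kb into the gene, with its peak centred 19217 bp from the 5′ end. Kdm4c had 9.74 and 7.87 upstream of an internal start, 9374 bp in. Sirt1 had 6.51 and 4.69 at internal starts, 42623 bp from an upstream 5′ end where 0 and 0.638 were found. For Kdm2b, 6.91 and 5.57 at an internal start stood against 1.08 and 1.11 at the 5′ end. Nsd1 had 5.68 and 5.89 against 1.86 and 1.95.

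**Figure D3:**
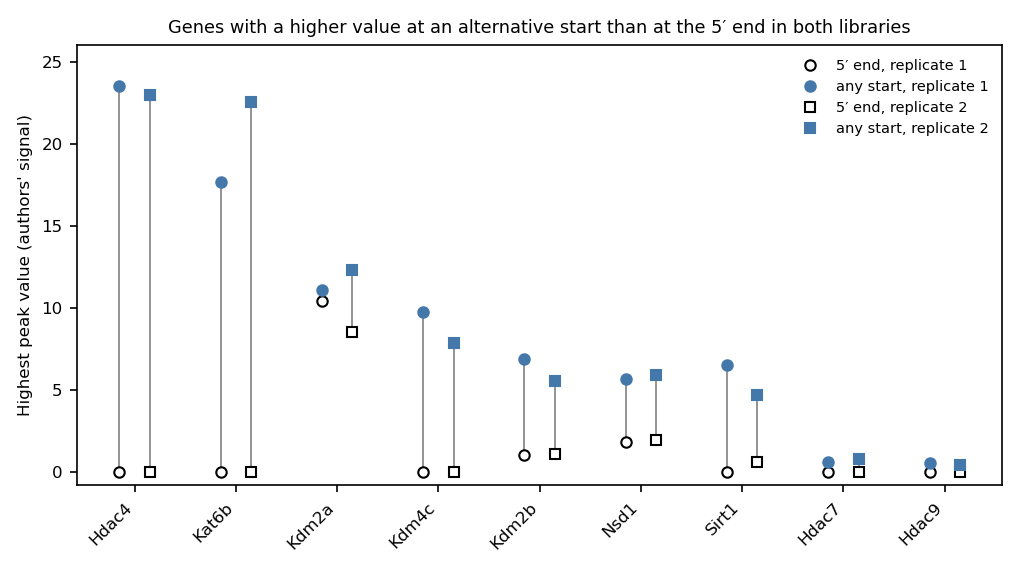
Highest peak value (authors' signal) at the 5′ end of the gene (open symbols) and at any annotated start (filled symbols) for the 9 genes that differ in both libraries. Circles are replicate 1 and squares replicate 2. Hdac4 and Kat6b rise from 0 at the 5′ end to values above 17, while Hdac7 and Hdac9 stay below 1 at every GENCODE start.

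Sirtuins were low to middling, with the exception of Sirt2. This mainly cytoplasmic deacetylase had 9.69 and 10.9 from a peak shared with Nfkbib. Of the nuclear members, Sirt1 had the values given above, and Sirt6 had 3.97 and 5.24 and shared its peak with Ankrd24. Sirt7 had 3.28 and 2.48 (mean 2.88, against 5.99 with windows of 2500 bp). The peaks behind that 5.99 lay in promoter windows of other protein-coding genes. Outside all such windows, the highest peaks near Sirt7 were 1.18 and 0.861. Of the mitochondrial members, Sirt3 had 6.36 and 6.30 from a peak shared with the proteasome gene Psmd13, Sirt4 had 3.70 and 4.39, and Sirt5 had 3.19 and 2.56. Shared peaks occurred in 10 of the 68 open enzymes (background 18.4%), 3 of them sirtuins.

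Among the acetyltransferases, the highest values were those of the MYST genes Kat6b and Kat7, and the family spanned a wide range. Kat7 (HBO1) had 12.9 and 15.3, Kat6a 8.44 and 6.98, Kat5 (TIP60) 5.13 and 4.78 and Kat8 (MOF) 3.27 and 3.44. Of the GNAT family, Kat2a (GCN5) had 4.53 and 3.63 and its paralog Kat2b (PCAF) 1.17 and 0.853, a gap of 3.86 and 4.26 times. Kat14, a subunit of the ATAC complex, had 7.44 and 8.83 from a peak shared with Pet117. Kat6b exceeded Kat6a by 2.09 and 3.23 times.

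Kdm6b (JMJD3), the inducible H3K27 demethylase, had 0 in replicate 1 and 0.627 in replicate 2 by the GENCODE starts, 166 steps of the signal scale. In replicate 1 no base within 1000 bp of either start had a false discovery rate (FDR) below 0.05. In replicate 2, 854 and 1074 bases did. The locus was nevertheless rich in peaks on both sides of the annotated 5′ end. A peak of 7.10 and 9.34 lay 5306 bp upstream, another of 7.82 and 8.30 lay 3966 bp upstream, and one of 8.31 and 8.23 lay 2394 bp inside the gene. RefSeq places further Kdm6b starts in this stretch, the curated one 2519 bp upstream of the GENCODE 5′ end. With RefSeq starts the promoter value of Kdm6b was 8.31 and 9.34 and all 69 genes were open, so its place outside the open genes changes with the starts used. That alternative was chosen after the values had been seen. Windows of 2500 bp around the GENCODE starts likewise took Kdm6b to 8.27 ± 0.056 (SD, n = 2) and left all 69 genes open. The share of all protein-coding genes open under either alternative is not given here, so these counts stand without a background. RefSeq starts also raised Hdac7 to 1.76 and 1.86 and Sirt4 in replicate 2 to 4.96.

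**Figure D4:**
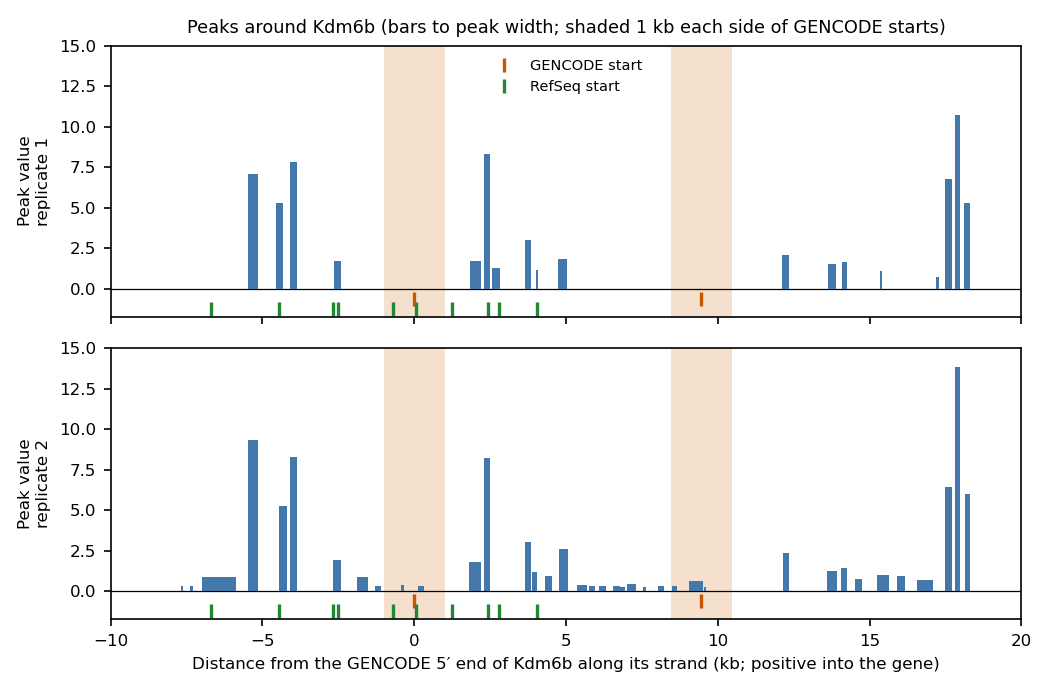
Peaks around Kdm6b in replicate 1 (top) and replicate 2 (bottom), with peak value (authors' signal) against distance from the GENCODE 5′ end along the gene's strand in kb. Bars are as wide as the peaks, ticks mark annotated starts and shading the windows around GENCODE starts. The 3 tallest bars shared by the libraries between 6 kb upstream and 5 kb inside lie outside the shaded windows. The group near 18 kb belongs to promoter windows of other genes.

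The 2 libraries gave similar values for these genes. The log2 ratio of replicate 2 over replicate 1, centred on all open genes, ran from -0.48 (Kdm7a) to 0.55 (Kdm4d), with a median absolute value of 0.22 against 0.18 for all open genes. None of the 68 went beyond 1 in either direction (background 0.139%). After centring, 37 of 68 were higher in replicate 2 (background 50%). Of 14 pairs of paralogs or homologs examined, picked from textbook knowledge with the values in view, the library ranges overlapped in none. The narrowest gaps were those of Suv39h1 and Suv39h2 and of Kmt2c and Kmt2d, 1.25 and 1.29 times in replicate 2.

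Around the peaks, a longer stretch was accessible than at open genes at large, by more than the spread between the libraries. Stretch and promoter value come from the same libraries, and open genes of like promoter value were not compared. The length with an FDR below 0.05 in the 2001 bp centred on the highest peak had a median of 1342.5 and 1406 bp for the 68 genes and 959 and 980 bp for all open genes. It covered all 2001 bp in both libraries at Setd5, Nsd1 and Kmt2a and was shortest at Sirt4 (444 and 607 bp), Hdac10 (549 and 535 bp) and Sirt6 (572 and 676 bp). By class, the median was 1609 bp for methyltransferases and 918 bp for sirtuins (means of both libraries). The observed over expected CpG of the 300 bp window was 0.855 ± 0.004 for the enzymes and 0.795 ± 0.007 for all open genes (SD, n = 2), and the GC content 65.9% and 64.3%. Hdac7 was CpG-poor, with 0.274 in replicate 1, and so was Hdac8 with 0.486.

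Short strings bound by known factors were searched on both strands of the 300 bp windows, counting a match as footprinted where any base of it was under a footprint. The NRF1 palindrome was found in 5 of 68 open enzymes in both libraries (background 2.28% and 2.22%), in each case inside a footprint (background 2.27% and 2.2%). NRF1 activates many broadly expressed genes from such sites. The matches are shown with 10 bases on each side, the palindrome in capitals, on the strand of the gene.
Kdm5c, chrX:152232933-152232962: tctagagactGCGCATGCGCatcactggcc
Kmt2c, chr5:25499620-25499649: gtagcgcgggGCGCATGCGCggactcagcc
Setd4, chr16:93604059-93604088: cctgggagttGCGCATGCGCgtgccagagg
Sirt5, chr13:43365594-43365623: gccccatcccGCGCATGCGCgatggggtgc
Sirt6, chr10:81627690-81627719: catcaggaggGCGCATGCGCtctggaaaga
In all 5 the footprints covered the whole palindrome in both libraries, with footprints of 17 to 31 bp. No other string searched overlapped these matches. The matches lay 72, 852, 11 and 139 bp upstream of the start used for Kdm5c, Kmt2c, Setd4 and Sirt6 and 79 bp downstream of it in Sirt5. For Sirt6 the start used is the internal start of a noncoding transcript, so its match lies inside the annotated gene, downstream of the 5′ end. The genes belong to 3 classes, and their promoter means ran from 2.88 (Sirt5) to 10.1 (Kmt2c).

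Of the other strings, GGGCGG (SP and KLF) was in 53 and 52 of 68 enzymes (background 68.8% and 67.5%), and under a footprint in 44 and 43 (background 52.6% and 53.4%). CCAAT (NFY) was in 29 and 29 (background 37.1% and 37.6%), and under a footprint in 18 and 21 (background 18.2% and 19.5%). CCAAT was footprinted at least once in both libraries at Hdac1, Hdac5, Ezh2, Kat7, Kdm4b and Kmt5a, among others, with 3 such matches at Kdm4b. The ETS string CCGGAAG was in 13 and 14 (background 18.1% in both). The YY1 motif was in 2 and 3 genes (background 2.5% and 2.44%), GCGGGAAA (E2F) in 2 and 2 (background 2.22% and 2.28%), TGACGTCA (CREB) in 2 and 2 (background 3.58% and 3.59%) and AACNGTT (A-MYB) in 3 and 3 (background 2.49% and 2.48%). None of the 68 windows held the ZBTB33 motif (background 1.19% and 1.16%), GTTGCCATG (RFX; background 0.837% and 0.89%) or the CTCF motif (background 0.0465% and 0.0332%).

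Distal peaks were counted within 50 kb of any start and outside the promoter windows of all protein-coding genes. The median count was 5 in replicate 1 and 6 in replicate 2, both for the open enzymes and for all open genes. The enzymes have more starts to count around, a median of 8 against 4. The length searched was not set beside that of all open genes. The class medians of both libraries lay between 5.0 (demethylases) and 6.0 (HDACs), within the spread between libraries. Counts of 10 or more distal peaks in both libraries were found at 11 of the 68 (background 12.5%). Across the 68 genes the promoter value and the number of distal peaks had a Spearman correlation of -0.07 and a Pearson correlation of -0.04, a description over genes of the same 2 libraries.

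A few loci were dense in distal peaks. Kdm6b had 20 and 47, in 109 kb searched, and 43 in replicate 2 once overlapping peaks were counted as 1. Of these, 14 in replicate 1 and 13 in replicate 2 had a value of 1 or more, and 6 and 34 a value under 1. Inside the gene lay 9 and 17 of them. Counted by GENCODE starts, they include the peaks of 8.31 and 9.34 that gave Kdm6b its promoter value with RefSeq starts. Hdac7, with its low promoter value, had 18 and 25, Hdac4 had 16 and 22 over 354 kb, with 10 and 13 inside the gene, Setd1b had 14 and 18 and Nsd1 had 12 and 17. At the other end, Suv39h2 had 0 and 1, Kdm5d had 1 and 0, and Kdm3a had 1 and 1 despite its high promoter value. Summed over the 68 open enzymes, 340 of 408 distal peaks of replicate 1 (83.3%) overlapped a peak of replicate 2, and 339 of 508 of replicate 2 (66.7%) overlapped one of replicate 1. Over all open genes the shares were 82.9% and 68.2%, so the enzymes were close to the rest.

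**Figure D5:**
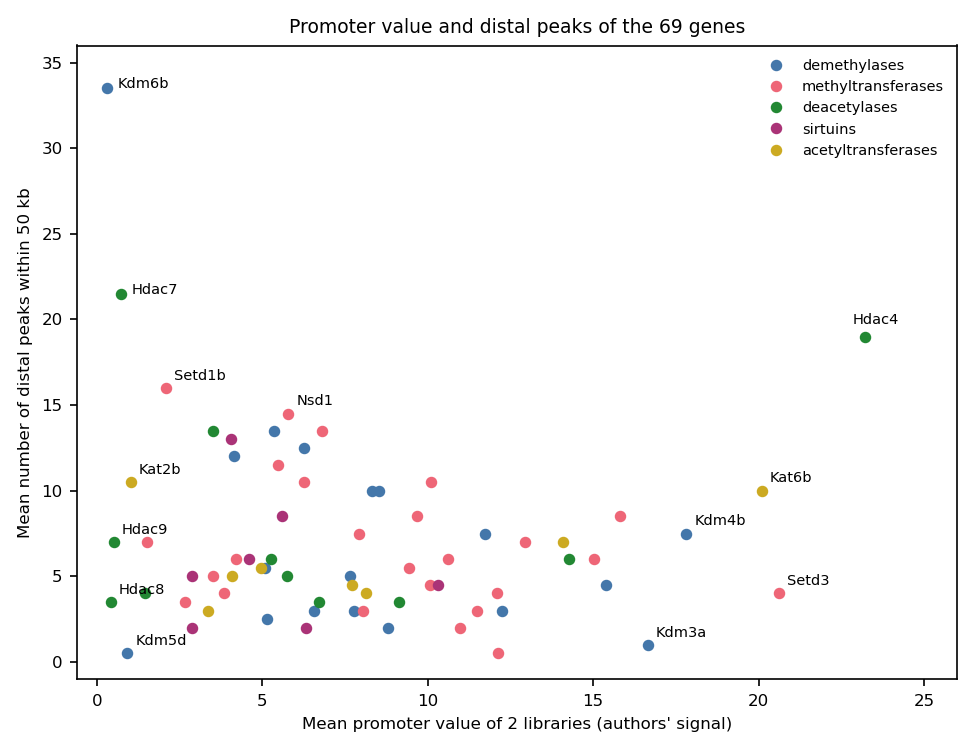
Mean promoter value (authors' signal) against the mean number of distal peaks within 50 kb, both over the 2 libraries, for all 69 genes coloured by class. By the GENCODE starts used here, Kdm6b (33.5 distal peaks) and Hdac7 (21.5) combine many distal peaks with a low promoter value. With RefSeq starts, peaks counted here as distal give Kdm6b promoter values of 8.31 and 9.34, and Hdac7 has 1.76 and 1.86. Hdac4 is high in both, and Kdm3a and Setd3 have high promoter values with few distal peaks.

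Most distal peaks were low, and the highest one of a gene exceeded the median promoter of open genes at 8 of the 67 open enzymes with a distal peak in replicate 1 and 9 of 67 in replicate 2 (background 7.49% and 6.49%). The highest of all, 20.7 and 21.7, lay 31 kb upstream of Kmt2c within 1000 bp of a start of the long noncoding RNA gene 1700096K18Rik. A peak of 9.49 and 9.38 near Suv39h1 lay at a start of the noncoding gene Gm6787. Another of 6.10 and 5.62 lay 1410 bp upstream of Kmt2e at the noncoding gene 5031425E22Rik. It was beside the peak that gave the promoter value of Kmt2e, 1040 bp upstream. Sharing of promoter peaks was scored among protein-coding genes alone. No annotated start was within 1000 bp of the peak of 11.0 and 11.1 that lay 3.1 kb upstream of Kdm5b, of that of 6.18 and 7.50 lying 11425 bp upstream of Kmt2b, or of that of 5.17 and 6.17 about 19 kb upstream of Nsd1. In all, the highest distal peak was near a start of a gene that is not protein-coding at 8 and 7 of the 67 (background 8.29% and 8.18%).

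Other genes of histone modification, listed from textbook knowledge, gave the following values. Of 98, 96 were open (background 68.7%), with a median of 6.61 ± 0.339 (SD, n = 2) and 73 above the median of open genes (background 50%). All 15 methyltransferase partners listed lay above it, among them the Polycomb subunits Suz12 (15.7 and 14.8) and Eed (12.0 and 9.32). The 9 other JmjC genes had a lower median, 3.27 ± 0.573 (SD, n = 2), with 4 above the median of open genes, from Phf2 (0.667 and 0.653) to Jarid2 (15.8 and 17.9). Prdm9, the meiotic H3K4 methyltransferase that sets recombination sites, had 18.2 and 13.7, and Prmt5, an arginine methyltransferase known from germ cell development, 16.9 and 21.6. The muscle gene Smyd1 had no promoter peak in either library, and the brain gene Prmt8 had 0.360 in replicate 1 alone.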

How the data were processed

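Per the file headers and descriptions, the authors deposited for each library, on mm10, a longer and a shorter peak list, footprints and an FDR track. Aligner and callers: not given in the sources used here. Peak values are a signal column set by the authors, whose unit is not stated. Values under 1 were whole multiples of 1 step per library (0.00538 and 0.00377) to within 0.05 steps. The deposited track holds q-values below 0.05. The p-value column of the deposited footprints holds a constant 0.01, so only positions were used. A median peak held 101 and 134 steps, and depth in reads was not used here.

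Python 3.11.15 with pandas 2.3.3, numpy 2.4.6 and pysam 0.24.0 set the longer lists against all starts of 21911 protein-coding genes (GENCODE M21, 1 per symbol), with overlap from 1 bp, and read sequence from RefSeq GRCm38.p6. Code was tested on simulated data. With 1 group and 2 replicates no test was made, and lists are described beside all genes. The named-gene rule took the highest and lowest gene of each subclass, genes without a peak, sex-linked genes and the extremes in distal peaks, footprints and library ratio; other members are named as the rest of their subclass. Members, lists and pairs were chosen with earlier results of these data known. Alternatives were other windows, starts, peak lists and thresholds, and single libraries.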

Additional observations from a re-analysis of the deposited data

How the results depend on the processing

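No paired analysis was possible because there is 1 group. The results are levels and medians without a sign. The cause of each shift was not tested beyond what each setting itself changes. At the 5′ end alone Hdac4, the highest gene, was at 0, and sirtuins came above HDACs. For the promoter median of the open enzymes, the ratio to all open genes and class medians, windows of 500 bp gave 6.33, 1.63 and 7.64 for methyltransferases. Windows of 2500 bp gave a ratio of 1.92 and medians of 7.80 (demethylases), 5.78 (HDACs) and 5.71 (sirtuins), with Hdac10 and Sirt7 valued by peaks in other genes' promoter windows. The 5′ end alone gave 6.78 for demethylases, 3.49 for HDACs and 4.52 for acetyltransferases. Counting a peak by its midpoint gave 6.48, a ratio of 1.68 and 8.01 for methyltransferases. The shorter lists gave a ratio of 1.59, and peaks at or above each library's median gave 7.22 and 1.57. Leaving out peaks shared by several genes gave 6.57, a ratio of 2.28, and class medians of 5.62 (demethylases), 8.01 (methyltransferases), 3.49 (HDACs), 2.83 (sirtuins) and 4.52 (acetyltransferases). RefSeq starts, added after seeing the data, gave 7.80 for demethylases. Leaving out 1 library gave an overall median of 6.67 to 7.09 and a ratio of 1.83 to 1.90.

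Distal medians are given for all enzymes, then demethylases, methyltransferases, HDACs, sirtuins and acetyltransferases. Within 25 kb they were 3.5, 2.75, 3.5, 3.5, 2.5 and 2.5, and within 100 kb 11.5, 12.5, 11.5, 11.0, 12.5 and 10.75, so the order of the classes changed with the distance. The shorter lists gave 3.0, 2.75, 3.5, 3.0, 2.5 and 2.5, and peaks at or above the library median 3.5, 2.25, 3.5, 2.5, 3.0 and 3.25. Around the 5′ end alone the first 4 were 4.5, 4.25, 4.5 and 4.0. Outside windows of 2500 bp the first 5 were 4.0, 4.25, 4.0, 4.5 and 3.0. Of the values of single genes under the planned settings, 405 stayed within their spread and 27 moved beyond it. Of the counts, medians and ratios of the set and its classes under these settings, 69 stayed and 58 moved. A spread from 2 libraries is itself imprecise.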
